A study of Mus musculus with 18 samples.

Results

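The Bcl-2 family genes Bax, Bak1, Bad, Bcl2, Bcl2l1, Bcl2l11 and Mcl1 were followed in the developing mouse cochlear nucleus, the brainstem nucleus in which the auditory nerve ends. Their probe sets were taken from a list of 18 identifiers with a gene for each. Of these, 16 were among the 22690 probe sets of the deposited table, and the 2 others, both listed under Bcl2, were skipped. That left 1 probe set each for Bax, Bak1 and Bad, 2 for Bcl2, 3 for Bcl2l1, 2 for Bcl2l11 and 6 for Mcl1. The genes were those given with the list, since the deposited table names probe sets only by identifier. Cochlear nuclei of untreated C57BL/6J mice were collected on postnatal day 7 (P7, 3 arrays), day 14 (P14, 2 arrays) and day 21 (P21, 3 arrays). Each array carried RNA pooled from 5 pups, and every group was a baseline group with no operation on the ear. The labels do not say whether the pools came from separate litters, so the p-values measure the spread between these arrays, and pooling averages over pups. The tissue is a mixture of neurons, glia and vessels, and in bulk RNA a smaller number of cells of a type and less RNA per cell cannot be told apart. Markers of these cell types could not be looked up, since no table at hand pairs them with probe sets.

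Proteins of the Bcl-2 family decide whether the outer membrane of the mitochondrion stays intact. Bax and Bak are the effectors that open this membrane and release cytochrome c, which starts the caspase cascade. Bcl-2, Bcl-xL (the protein of Bcl2l1) and Mcl-1 bind them and keep them inactive, while the BH3-only proteins Bad and Bim (the protein of Bcl2l11) neutralise these guardians, and Bim can also engage the effectors directly. In young mice many neurons of the cochlear nucleus die when the cochlea is removed, while after the onset of hearing the same operation leaves most of them alive, and a Bcl-2 transgene in mice protects them at the young age.

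The upstream sequences of Bax, Bak1 and Mcl1 are printed because at least 1 probe set of each passed the test between ages and the RefSeq promoter table for GRCm38.p6 lists 1 start for each. Bcl2l1, which also passed, has 3 starts there and is not shown, because the arrays do not tell which start was used. Each line gives the 250 bases before the start, on the gene's own strand. Capitals mark matches on either strand to the GC box GGGCGG, the E-box CACGTG, the TATA box TATAAA or the half-site of the p53 motif. The motifs were chosen after the changes were known.
Bax (chr7:45466899-45467148, minus strand): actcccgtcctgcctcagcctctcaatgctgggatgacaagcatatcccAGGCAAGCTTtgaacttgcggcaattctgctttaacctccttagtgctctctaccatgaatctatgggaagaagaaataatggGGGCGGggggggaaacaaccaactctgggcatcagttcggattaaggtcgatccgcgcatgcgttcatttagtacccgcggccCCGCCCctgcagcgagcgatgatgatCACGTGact
Bak1 (chr17:27028628-27028877, minus strand): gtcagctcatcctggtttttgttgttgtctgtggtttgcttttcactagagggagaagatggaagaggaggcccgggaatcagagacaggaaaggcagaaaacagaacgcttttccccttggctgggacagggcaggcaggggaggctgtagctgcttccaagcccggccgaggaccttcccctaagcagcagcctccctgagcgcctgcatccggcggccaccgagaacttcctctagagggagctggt
Mcl1 (chr3:95658471-95658720, plus strand): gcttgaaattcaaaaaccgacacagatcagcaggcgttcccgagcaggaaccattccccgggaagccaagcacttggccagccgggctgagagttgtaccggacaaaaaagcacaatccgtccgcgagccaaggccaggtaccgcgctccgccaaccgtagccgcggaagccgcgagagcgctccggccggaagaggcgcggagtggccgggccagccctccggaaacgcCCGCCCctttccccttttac

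The Bax sequence held 2 GC boxes, an E-box that begins 9 bases before the start and a p53 half-site that begins 201 bases before it, with no overlap between them. The Mcl1 sequence held 1 GC box, and the letters of these motifs were not in the Bak1 window. Among 32851 RefSeq promoters cut to the same length, 32.74% held a GC box, 6.02% an E-box, 12.37% a TATA box and 7.13% a p53 half-site. A match describes the letters and does not show that a factor binds there.

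Values are signals on a scale on which the 2%-trimmed mean of every array is 250.1. Changes are differences of log2(signal + 12.5) from limma, with adjusted p-values over all 15296 probe sets tested and a threshold of 0.05, and they understate the changes of dim probe sets. Probe sets with a mean signal under 50.0 over the 8 arrays were not tested, which left 14 of the 16. Median signal per array lay between 98.7 and 110.5 and was lowest on the P14 arrays (98.7 and 98.8). Log2 signals of arrays of 1 age had correlations between 0.966 and 0.983 across the tested probe sets, which are not independent of each other. For the bacterial control transcripts dap, lys, phe and trpn, probe sets whose transcript was not found on an array reached a signal of at most 49.1. That value came from 1 phe probe set on P7 replicate 1, and the median was 4.20. P21 replicate 1 differed in its added control, the bacterial lys transcript, whose signal at the 3' end was 14.4 times that at the 5' end, against 1.67 and 1.72 on the 2 other arrays that carried lys. These ratios come from 1 group of lys probe sets. In the second group the 3' and 5' signals were 3370 and 4117 on the P7 array and 3871 and 5491 on the P14 array. They were 1285 and 228 on P21 replicate 1. The 3'/5' ratio of the mouse actin control was 1.13 on that array, within the 1.01 to 1.17 of the others. The control probe set for the 5' part of 18S rRNA varied widely between arrays, with signals of 155, 3530 and 284 at P7, 43.6 and 38.6 at P14, and 1197, 944 and 6137 at P21. The P7 and P21 arrays overlapped, and no test was made. The P14 arrays were the lowest of all.

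Between P21 and P7, Bcl2l1 rose and Bax, Bak1 and some probe sets of Mcl1 fell. Of the 14 tested probe sets 7 passed, 3 up and 4 down. The background is 38.6% of all probe sets, made up of 17.1% up and 21.5% down. The 3 risers are all the probe sets of Bcl2l1, and the 4 that fell are those of Bax and Bak1 and 2 of the 6 of Mcl1. The count lies near the background, so it says nothing particular about the family, and the probe sets are described by gene. The split moved to 3 higher and 2 lower after quantile normalization and to 3 higher and 1 lower with equal array medians. In both settings Bak1 and Mcl1 1416881_at no longer passed, and 39.1% and 38% of all probe sets did. The median log2 change of the 14 was -0.21, against -0.02 over all probe sets tested, and the median absolute change was 0.39 against 0.32. Leaving out P7 replicate 2 or P21 replicate 2 left 4 called, where 31.3% and 33.1% of all probe sets passed. With the poly-A control of an array as a block, P21 rests on replicate 1 alone, and fewer probe sets passed, among the members and over all. The log2 change of Bax was then -0.86.

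**Figure D1:**
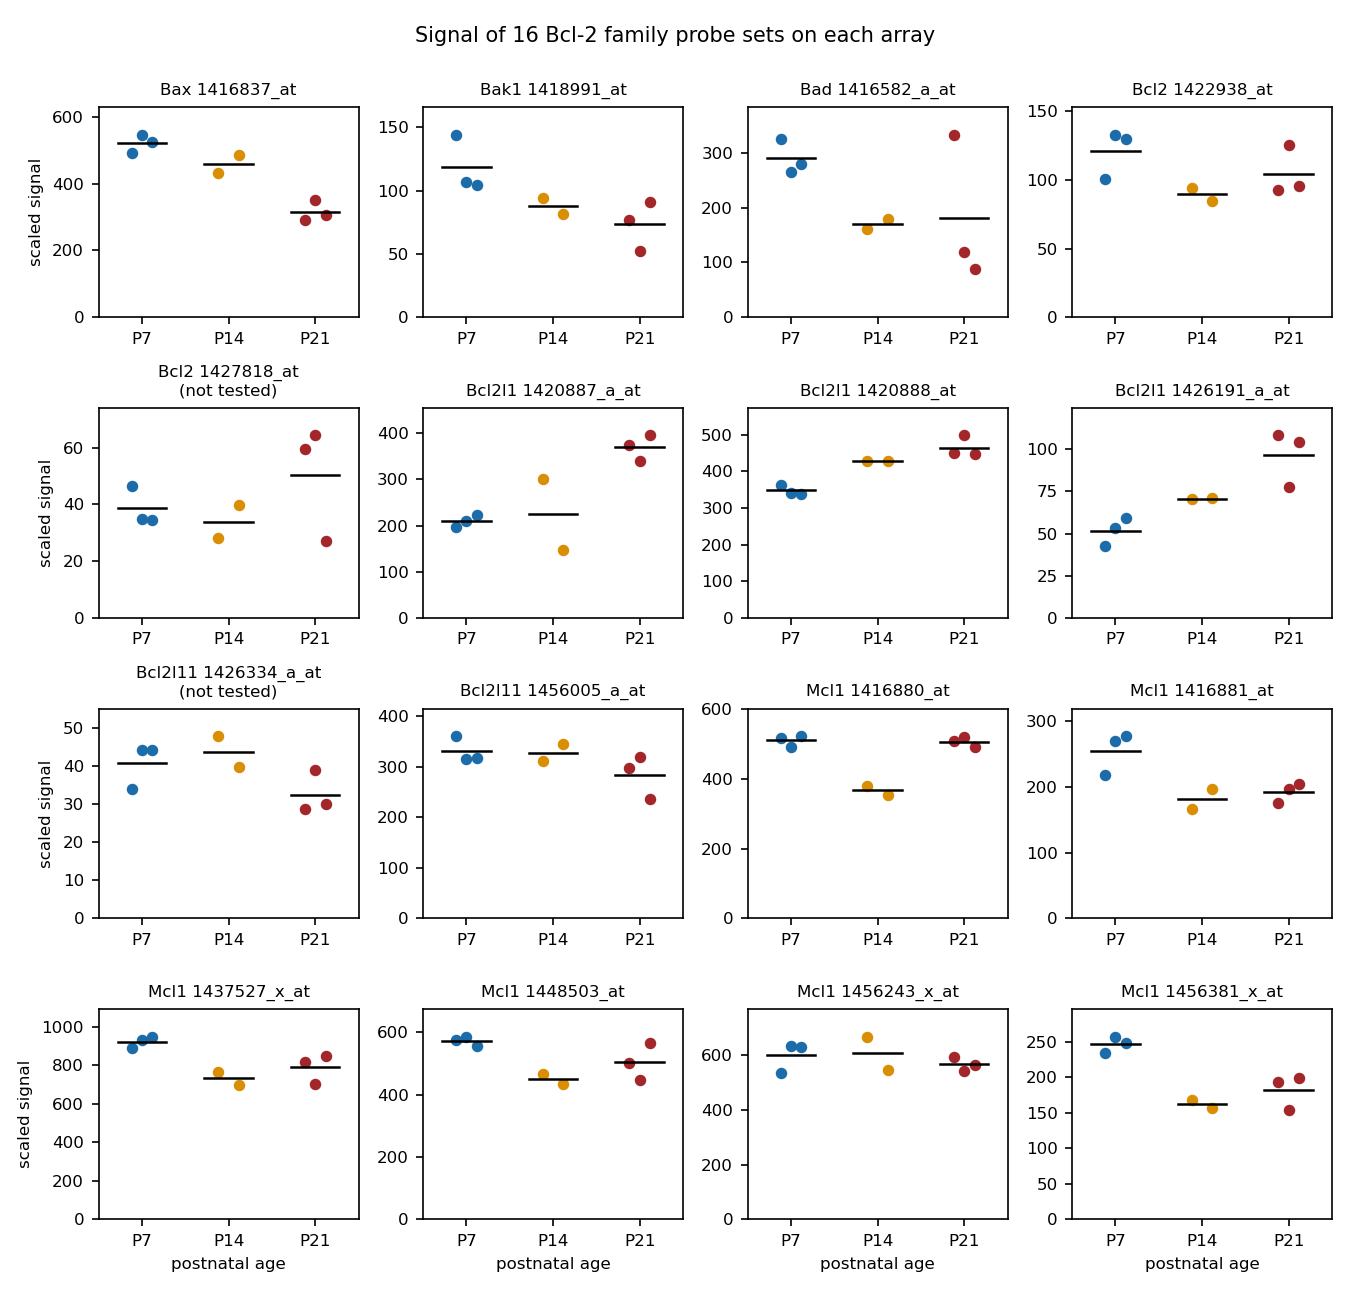
Scaled signal (y axis, linear from 0) of each of the 16 probe sets on every array at P7 (3 arrays), P14 (2) and P21 (3); points are arrays and lines mark the means. Bax is lowest at P21 and the 3 Bcl2l1 probe sets are highest there, while Mcl1 1416880_at is low at P14 alone and Bad has 1 P21 array at 333 and the others at 120 and 87.5.

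Bax, the effector that moves from the cytosol to the mitochondrion when it is activated, had the smallest adjusted p of the probe sets that fell. Bax 1416837_at had signals of 493, 546 and 524 at P7, 431 and 485 at P14, and 291, 349 and 306 at P21. In 5 of the 14 tested probe sets the P21 arrays all lay below the P7 arrays, and in 3 all above (27.4% and 22.1% of all probe sets). For Bax, all P21 arrays lay below all arrays of both earlier ages, and the P14 arrays lay just below the P7 arrays. At P21 Bax averaged 316 ± 30.1 (SD, n = 3), against 521 ± 26.9 (SD, n = 3) at P7, a log2 change of -0.70 (SE 0.11, limma's adjusted p = 0.000525) or 0.614 times the P7 value. A change this low or lower was found in 10.4% of all probe sets tested. It passed in all 17 alternatives, with log2 changes from -0.86 to -0.64.

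Most of the difference in Bax lay between P14 and P21. The log2 change at P21 over P14 was -0.52 (SE 0.12, 95% interval -0.78 to -0.26) and missed the threshold, with an adjusted p from limma of 0.0548, in a comparison in which 2.05% of all probe sets passed. It passed with a stricter filter (0.0469), with equal array medians (0.0302) and without P7 replicate 1 (0.0482). The change at P14 over P7 was -0.18 (SE 0.12, limma's adjusted p = 0.278), with a 95% interval of -0.45 to 0.08. The difference between the changes of the 2 weeks was 0.34 (SE 0.21) and did not pass (limma's adjusted p = 0.346).

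Bak1, the effector that sits in the mitochondrial membrane from the outset and whose full-length protein is low in mature mouse neurons, was also lower at P21. Bak1 1418991_at had signals of 144, 107 and 105 at P7, 93.9 and 81.8 at P14, and 77.0, 51.9 and 91.3 at P21. The P21 arrays all lay below the P7 arrays but on both sides of the P14 arrays. Bak1 averaged 73.4 ± 19.9 (SD, n = 3) at P21 and 119 ± 22.4 (SD, n = 3) at P7, a log2 change of -0.62 (SE 0.20, limma's adjusted p = 0.0335). The call was lost without P7 replicate 1 (-0.49, adjusted p = 0.107), without P7 replicate 2 (-0.69, 0.0531) and without P21 replicate 2 (-0.43, 0.103). It was also lost with the poly-A control of an array as a block (-0.40, 0.385), with no filter (-0.62, 0.0592), with quantile normalization (-0.59, 0.0605) and with equal array medians (-0.56, 0.0582), so 7 of 16 alternatives ended it.

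The BH3-only gene Bad, whose protein is held in the cytosol by 14-3-3 proteins while growth factor signals keep it phosphorylated, did not pass in any of the comparisons in the fit of all arrays without a block. Bad 1416582_a_at had signals of 326, 264 and 280 at P7, 161 and 178 at P14, and 333, 120 and 87.5 at P21. The P14 arrays lay below all P7 arrays, and at P21 replicate 1 lay above every other array while replicates 2 and 3 lay below every other array. The log2 change of P21 over P7 was -0.86 (SE 0.36, limma's adjusted p = 0.0832) with a 95% interval of -1.66 to -0.07. Leaving out P21 replicate 1 gave -1.39 (adjusted p = 0.000208), leaving out replicate 2 gave -0.70 (0.235) and leaving out replicate 3 gave -0.50 (0.277). A block for the poly-A control of an array turned it to 0.18 (0.627), and with the replicate number as a block it stayed at -0.86 and passed (0.0412). The change of P14 over P7 was -0.73 (adjusted p = 0.202), and it passed without P21 replicate 1 (-0.73, 0.00859) and with the poly-A control of an array as a block (-0.73, 0.0191). P21 replicate 1 is the array with the high 3'/5' ratio of its lys control, and the part of that in the Bad value was not tested.

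Bcl2l11, whose protein Bim is a BH3-only trigger of death in neurons deprived of trophic support in rodents, showed no change that passed. Bcl2l11 1456005_a_at had signals of 361, 316 and 317 at P7, 311 and 346 at P14, and 298, 319 and 237 at P21. The arrays of the 3 ages overlapped. The log2 change of P21 over P7 was -0.22 (SE 0.13, limma's adjusted p = 0.207), and its 95% interval of -0.50 to 0.07 covers both no change and a moderate decrease. The other Bcl2l11 probe set, 1426334_a_at, was not tested. Its signals of 28.6 to 47.8 lay below the highest signal of control transcripts not found on an array (49.1) and above their median (4.20).

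**Figure D2:**
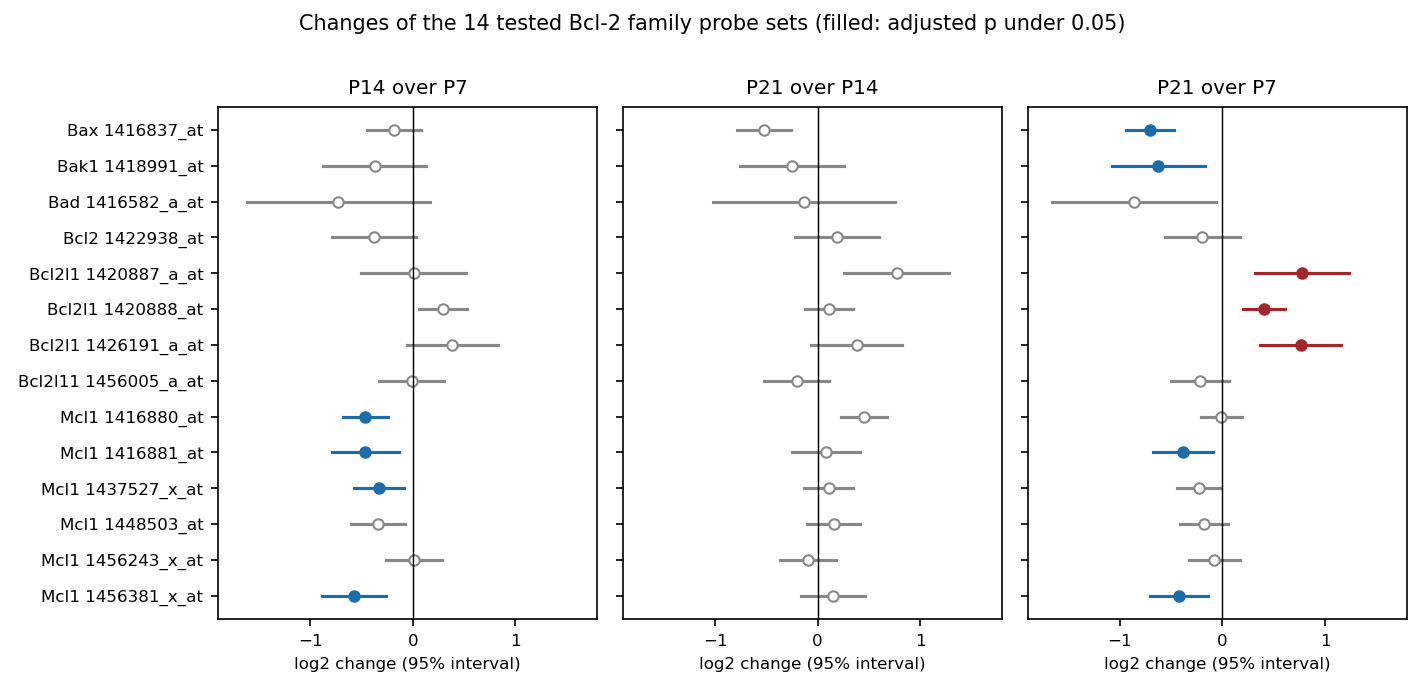
Log2 change (x axis) of the 14 tested probe sets for P14 over P7, P21 over P14 and P21 over P7, as points with 95% intervals from limma; filled points passed at an adjusted p under 0.05, red for higher and blue for lower at the later age. The 3 Bcl2l1 probe sets are filled and right of 0 for P21 over P7, the 4 filled points of P14 over P7 all belong to Mcl1, and no point is filled for P21 over P14.

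Bcl2l1 encodes Bcl-xL, the family member known as the main guardian of mature neurons in mice, and each of its 3 probe sets rose at P21 over P7. Bcl2l1 1420888_at had signals of 363, 342 and 340 at P7, 430 and 427 at P14, and 451, 499 and 447 at P21. The ages did not overlap and followed each other in order. At P21 it averaged 465 ± 29.0 (SD, n = 3), against 348 ± 12.7 (SD, n = 3) at P7, a log2 change of 0.41 (SE 0.09, limma's adjusted p = 0.00657) or 1.32 times. Its log2 change at P14 over P7 was 0.29 (SE 0.10), short of the threshold at an adjusted p from limma of 0.0606.

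Bcl2l1 1426191_a_at showed the same order at a lower signal. It had 42.8, 53 and 59.5 at P7, 70.5 and 71.1 at P14, and 108, 77.7 and 104 at P21. Again all P14 arrays lay above the P7 arrays and below the P21 arrays, and the log2 change of P21 over P7 was 0.76 (SE 0.18, limma's adjusted p = 0.00703) or 1.70 times. The P7 signals of this probe set lay near the highest signal of absent control transcripts. Its change depended on the pseudocount, at 0.87 with 2.50 and 0.52 with 50.0 added.

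The third probe set, Bcl2l1 1420887_a_at, had signals of 197, 211 and 223 at P7, 302 and 147 at P14, and 374, 340 and 395 at P21. The P21 arrays lay above all others, while the P14 arrays fell on both sides of the P7 arrays. The log2 change of P21 over P7 was 0.78 (SE 0.21, limma's adjusted p = 0.0133) or 1.71 times. Its change at P14 over P7 was 0.01 (SE 0.23) with all arrays and -0.48 without P14 replicate 1, so this probe set does not settle when the increase began. The 3 probe sets correlated with each other over the 8 arrays at r = 0.592 to 0.750. They kept their call for P21 over P7 in every alternative in which they were tested except the one with the poly-A control of an array as a block, in which P21 rests on replicate 1 alone (changes of 0.38 to 1.03, adjusted p from 0.106 to 0.178). The array maker's suffix _a marks probe sets that match several transcripts of a gene, and which splice forms of Bcl2l1, the long protective or the short form, they measure was not looked up, as no probe sequences were at hand.

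Since Bcl-xL restrains Bax, the change of Bcl2l1 relative to Bax was computed within each array, as the log2 ratio minus its mean at P7. No test was made of this ratio, because its genes were chosen with their changes known. For Bcl2l1 1420888_at it was 0.13, -0.09 and -0.04 at P7, 0.56 and 0.39 at P14, and 1.17, 1.06 and 1.09 at P21. The ages did not overlap, and the mean at P21 was 1.11, against 0.47 at P14. For 1426191_a_at the mean was 0.57 at P14 and 1.47 at P21, again with no overlap of ages. Bax and each of these probe sets had separate ages in opposite orders, so the lack of overlap in these ratios was fixed in advance. It adds nothing to the changes of the single genes. For 1420887_a_at the P21 arrays lay at 1.60, 1.22 and 1.62, and the P14 arrays at 0.76 and -0.38. Since Bax fell, the same ratio at P21 was above 0 in other members too. Among tested probe sets its mean was 0.08 for Bak1, 0.51 for Bcl2, 0.49 for Bcl2l11 and 0.28 to 0.69 for Mcl1, and it was -0.16 for Bad. The dim, untested probe sets of Bcl2 and Bcl2l11 had means of 0.95 and 0.46. The ratio is therefore in part the fall of Bax, and a value above 0 is not particular to Bcl2l1.

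**Figure D3:**
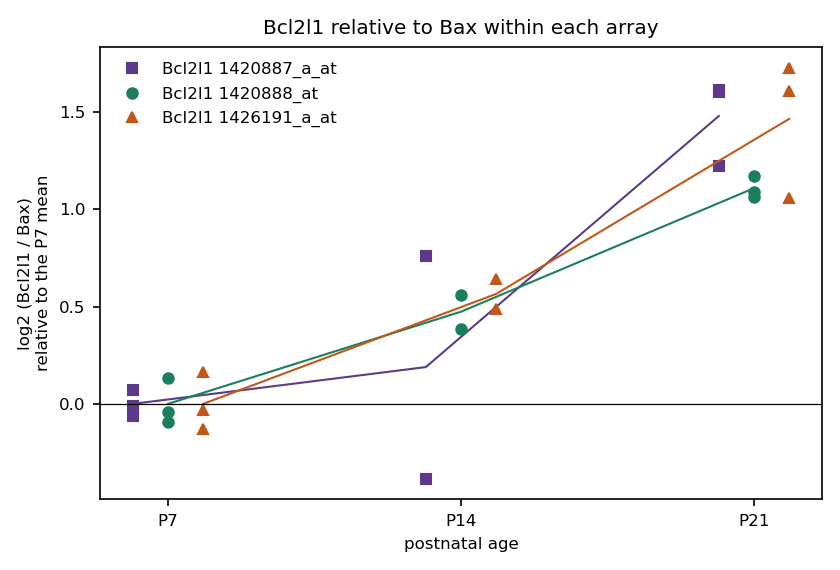
Log2 ratio of Bcl2l1 to Bax within each array, on log2(signal + 12.5) and relative to the mean at P7 (y axis), by postnatal age (x axis); points are arrays, lines join the means, and colours and symbols are the 3 Bcl2l1 probe sets. All P21 points lie above 1, and the P14 points lie between 0.39 and 0.76 except 1 of 1420887_a_at at -0.38.

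Bcl2, the founding survival gene of the family, showed no change that passed. Bcl2 1422938_at had signals of 101, 133 and 130 at P7, 94.4 and 84.9 at P14, and 92.3, 125 and 95.4 at P21. The P14 arrays lay below all P7 arrays, and the P21 arrays overlapped with the arrays of both earlier ages. The log2 change of P21 over P7 was -0.20 (SE 0.17, limma's adjusted p = 0.377), with a 95% interval of -0.56 to 0.17, and that of P14 over P7 was -0.38 (SE 0.18, limma's adjusted p = 0.149). The rise of Bcl2l1 therefore has no counterpart that passed in Bcl2, and the difference between the genes was not tested. The second Bcl2 probe set in the table, 1427818_at, was not tested, with signals of 27.0 to 64.4, on both sides of the highest signal of absent control transcripts.

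Mcl1 encodes a short-lived guardian that neural precursors of the mouse need to survive, and 4 of its 6 probe sets fell at P14 over P7. These were the only 4 of the 14 tested probe sets that passed in that comparison, against a background of 29.6% of all probe sets, with 12.9% up and 16.7% down. The P14 arrays all lay below the P7 arrays in 9 of the 14 and all above them in 2 (34.6% and 24.3% of all probe sets). The median log2 change of the 14 was -0.34, against -0.07 over all probe sets tested, and with equal array medians the median over all moved by 0.143 to 0.07. In that setting Mcl1 1416880_at was the only Mcl1 probe set that passed (-0.31, limma's adjusted p = 0.0441), and Bcl2l1 1420888_at passed as higher at P14 (adjusted p = 0.0099). The P14 arrays were also those with the lowest signal of the 18S rRNA control, 43.6 and 38.6, against 155 to 3530 at P7, and its part in the Mcl1 values was not tested. The comparison of P14 with P7 and that of P21 with P7 share the P7 arrays.

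Mcl1 1416880_at was lower at P14 than at either other age. It had signals of 517, 491 and 523 at P7, 381 and 353 at P14, and 508, 521 and 491 at P21. The P7 and P21 arrays covered the same range and the P14 arrays lay below all of them. The log2 change at P14 over P7 was -0.46 (SE 0.10, limma's adjusted p = 0.00674), that at P21 over P14 was 0.45 (SE 0.10, limma's adjusted p = 0.0507), and that at P21 over P7 was -0.01 (95% interval -0.21 to 0.19). The first week's change minus the second week's was -0.91 (SE 0.18, limma's adjusted p = 0.0172), and it was the 1 of the 14 that passed in that contrast, where 8.01% of all probe sets did (3.93% up and 4.08% down). The fall at P14 did not pass without P14 replicate 2 (-0.41, adjusted p = 0.0686), and the difference between the weeks did not pass without P14 replicate 1 (-1.02, 0.0957), without P14 replicate 2 (-0.81, 0.176) or with the poly-A control of an array as a block (-0.92, 0.0908), settings in which P14 or P21 is 1 array.

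In the other Mcl1 probe sets that fell at P14 over P7, all P21 arrays also lay below all P7 arrays. Mcl1 1456381_x_at had signals of 234, 257 and 249 at P7, 167 and 156 at P14, and 193, 153 and 199 at P21. Both later ages lay below all P7 arrays and overlapped with each other. Its log2 change was -0.57 (SE 0.14, limma's adjusted p = 0.0125) at P14 over P7 and -0.42 (SE 0.13, limma's adjusted p = 0.0229) at P21 over P7. The second of these was lost without P7 replicate 2 (-0.39, 0.0777), P7 replicate 3 (-0.42, 0.0649) or P21 replicate 2 (-0.31, 0.0674), with equal array medians (-0.36, 0.0635) and with the poly-A control of an array as a block (-0.32, 0.333). The first was lost without P14 replicate 1 (-0.62, 0.0557) or P14 replicate 2 (-0.53, 0.0918) and with equal array medians (-0.43, 0.0606).

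Mcl1 1416881_at had signals of 218, 270 and 278 at P7, 166 and 197 at P14, and 175, 197 and 205 at P21. Its arrays showed the same order, with both later ages below P7. Its log2 changes of -0.46 (SE 0.15, limma's adjusted p = 0.0393) at P14 over P7 and -0.38 (SE 0.13, limma's adjusted p = 0.043) at P21 over P7 lay close to the threshold. The change at P21 over P7 was lost without any 1 of the arrays except P7 replicate 1, with adjusted p up to 0.145, and the change at P14 over P7 was lost without P7 replicate 2 or 3 or either P14 array, with adjusted p up to 0.254. Both were lost with no filter (0.0591 for P21 and 0.0553 for P14), with quantile normalization (0.0872 and 0.0925), with equal array medians (0.0894 and 0.145) and with the poly-A control of an array as a block (0.0986 and 0.0547).

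The remaining 3 Mcl1 probe sets differed among themselves. Mcl1 1437527_x_at had signals of 892, 930 and 949 at P7, 764 and 699 at P14, and 818, 704 and 849 at P21, with a log2 change at P14 over P7 of -0.33 (SE 0.11, limma's adjusted p = 0.0425) that was lost without any 1 of the P7 or P14 arrays, with adjusted p from 0.0553 to 0.241. It was also lost with the replicate number as a block (-0.30, adjusted p = 0.0766), with no filter (0.0502), with no trend (0.0771), with equal array medians (-0.18, 0.308) and with the poly-A control of an array as a block (0.0698). Its P21 arrays also lay below the P7 arrays, at a log2 change of -0.23 (SE 0.10, limma's adjusted p = 0.0924). Mcl1 1448503_at had 576, 587 and 558 at P7, 468 and 434 at P14, and 503, 448 and 567 at P21, and its change at P14 over P7 of -0.34 (SE 0.12, limma's adjusted p = 0.0527) missed the threshold. Mcl1 1456243_x_at had 536, 636 and 631 at P7, 669 and 546 at P14, and 594, 544 and 563 at P21, with overlapping ages and changes of 0.01 (95% interval -0.26 to 0.29) at P14 and -0.08 (95% interval -0.32 to 0.17) at P21, both over P7.

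Over the 8 arrays 1437527_x_at, 1448503_at and 1456381_x_at moved together, at r = 0.934 to 0.983, while 1456243_x_at correlated with the other 5 at only -0.144 to 0.359. The probe sets of Mcl1 share a transcript and are no replicates of each other. The suffix _x marks probe sets with probes that match other sequences too, so 1437527_x_at, 1456243_x_at and 1456381_x_at can carry signal from another transcript. In 5 of the 6 the lowest mean was that of P14. No single direction for Mcl1 over the whole period is given by these probe sets, since 1416880_at returned to its P7 range and 1456381_x_at and 1416881_at did not.

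**Figure D4:**
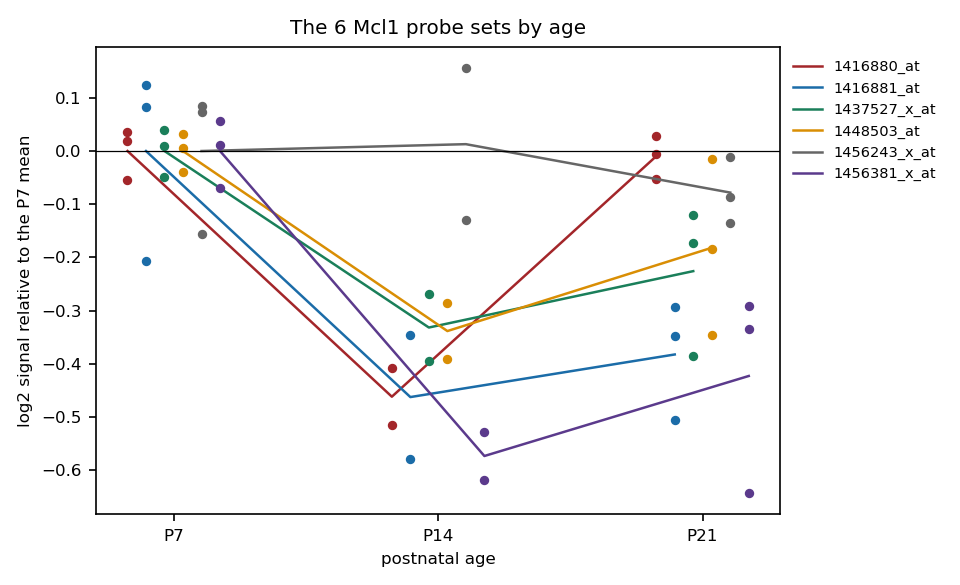
Log2 signal of the 6 Mcl1 probe sets relative to the P7 mean of each (y axis), by postnatal age (x axis), on log2(signal + 12.5); points are arrays and lines join the means. In 5 probe sets the mean is lowest at P14, 1416880_at is back at its P7 level at P21, and 1456243_x_at stays near 0.

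Between P21 and P14 none of the 14 tested probe sets passed in limma (0), with 3 at an unadjusted p under 0.05, namely Bax (lower), Bcl2l1 1420887_a_at and Mcl1 1416880_at (both higher). Over all probe sets 2.05% passed, 0.843% higher and 1.2% lower, and P14 has 2 arrays. The P21 arrays all lay above the P14 arrays in 4 of the 14 and all below them in 1, against 21.3% and 16.8% of all probe sets. For Bcl2l1 1420887_a_at the log2 change was 0.77 (SE 0.23, limma's adjusted p = 0.109) with all arrays, 1.26 (adjusted p = 0.0206) without P14 replicate 1 and 0.28 without P14 replicate 2, so the 2 P14 arrays decide it.

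The bacterial control found on an array differed between arrays, and of these controls only dap and lys were found on arrays of more than 1 age. Among the arrays with lys, which are 1 of each age, the log2 change of P21 over P7 was -0.82 for Bax, -0.39 for Bak1, 0.24 for Bad, and 0.40, 0.75 and 0.71 for Bcl2l1 1420888_at, 1426191_a_at and 1420887_a_at. The change of P14 over P7 for Mcl1 1416880_at was -0.55 among the lys arrays and -0.39 among the dap arrays, and that of 1456381_x_at was -0.63 and -0.52. For Bax, Bak1 and Bcl2l1 all P21 arrays lay on 1 side of all P7 arrays, so any pair of them had to show that direction. The same holds for the P14 and P7 arrays of Mcl1 1416880_at and 1456381_x_at. These pairs therefore add nothing on the direction of those changes. Bad, whose P21 and P7 arrays overlapped, had the opposite direction to its change over all arrays. The P21 array with lys is replicate 1, with the 3'/5' ratio of 14.4. All these values come from single arrays, apart from the 2 P7 arrays with dap, with no test.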

How the data were processed

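The authors deposited 1 table of signal intensity values for the oligonucleotide arrays, 1 value per probe set and array. Per the submitters' processing notes it was made with GCOS, with no version, and the steps of background correction and scaling are not given in the sources used here. The 2%-trimmed means of the deposited intensity columns were already equal. The label of 1 P21 array speaks of fewer replicates than there are, and none of the 3 was dropped. The cDNA arrays were not used here.

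Values were scaled to a trimmed mean of 250.1, 64 control probe sets were left out, and log2(signal + 12.5) was fitted for 15296 probe sets with limma 3.58.1 in R 4.3.3 (lmFit, eBayes with a trend), 1 mean per age over all 8 arrays, two-sided, with Benjamini-Hochberg adjustment. The procedure was also run on simulated data with independent noise and a shift at P21 alone. That setting does not cover a shift at P14 or effects on a whole array, so no conclusion is drawn from it. Alternatives were 2 other pseudocounts (2.50 and 50.0), no filter and a filter at 100.03, quantile normalization, equal medians, no trend, the replicate number or the poly-A control of an array as a block, and each array left out. There is no read depth for arrays, and their number limits the precision.

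The members and lists were chosen with earlier results of these data known. All member probe sets are named. The rule also covered 15 lists of other family, pathway and marker genes (133 symbols) and the genes most alike in pattern. These need gene names, 0 symbols matched an identifier, and they were not run. Same-numbered arrays of different ages correlated in their deviations at r = -0.0442 to 0.281 over 7 pairs, so the numbers were not taken to pair them.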

Additional observations from a re-analysis of the deposited data

Results flagged for a closer look

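Mcl1 1416880_at was marked because its change differed between the weeks, by a contrast of the intervals. Its log2 change at P14 over P7 minus that at P21 over P14 was -0.91 (SE 0.18, limma's adjusted p = 0.0172). The probe set was the 1 of the 14 tested that passed, near the background of 8.01% of all probe sets (3.93% up and 4.08% down). It passed in 14 of 17 alternatives, with values from -1.02 to -0.68 and adjusted p from 0.014 to 0.176. The 3 in which it did not pass were those without P14 replicate 1, without P14 replicate 2 and with the poly-A control of an array as a block. No group held the 4 arrays that a check for single outlying arrays needs, so P21 replicate 1 in Bad was not tested as one.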

How the results depend on the processing

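Under 17 alternatives, the log2 changes of the 14 tested probe sets in 4 contrasts gave 944 values. Of these 843 kept their direction and their side of the threshold, 51 lost a call, 16 gained one and 34 changed sign, in all of which neither value was called (0 called). The count for P21 over P7 was 7, where 38.6% of all probe sets passed. It was 4 with equal array medians (38% of all). With 1 P7 or P21 array left out it was 4 to 7 (31.3% to 37.1% of all). With the poly-A control of an array as a block, where P21 rests on 1 array, fewer passed, among the members and over all. The count for P14 over P7 was 4 (29.6% of all) and was 2 with no filter (18.8%) and with equal array medians (28.2%). With 1 P7 or P21 array left out it was 2 to 5 (22.9% to 31.2% of all). Without either P14 array, which leaves P14 with 1, fewer passed, among the members and over all. The count for P21 over P14 was 0 (2.05% of all) and was 2 with a stricter filter (3.22%) and 1 with equal array medians (2.88%). With 1 P7 or P21 array left out it was 0 to 2 (0.546% to 3.06% of all). The count for the difference between the weeks was 1 (8.01% of all). With 1 P7 or P21 array left out it was 1 to 2 (5.29% to 7.77% of all). With the poly-A control of an array as a block fewer passed here too, among the members and over all. With the replicate block the counts were 8, 3, 0 and 1 in the same order. Over all probe sets 39%, 28.8%, 2.11% and 7.69% passed. Bad was called for P21 over P7 (-0.86, limma's adjusted p = 0.0412), and Mcl1 1437527_x_at was lost for P14 over P7.

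With the poly-A control of an array as a block, P21 rests on 1 array, and the sign changed for P21 over P7 in Bad (0.18), Mcl1 1416880_at (0.0051) and 1456243_x_at (0.028), for P21 over P14 in Bad (0.91), Mcl1 1416881_at (-0.15) and 1456243_x_at (0.0055), and for the difference between the weeks in Bcl2l1 1426191_a_at (-0.10). For the difference between the weeks, equal array medians moved the median of all probe sets by 0.224 and quantile normalization by 0.101. With equal array medians it changed for P21 over P7 in Mcl1 1416880_at (0.058), for P14 over P7 in Bcl2l11 1456005_a_at (0.14) and for the difference between the weeks in Bak1 (0.086). With quantile normalization it changed in the last 2 of these (0.042 and 0.13). It also changed for P21 over P14 in Bad with the replicate block (0.059) and for the difference between the weeks in Bcl2l1 1426191_a_at with a larger pseudocount (-0.024).

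With 1 array left out, the signs that changed lay within these ranges. For P21 over P7, Mcl1 1416880_at ran from -0.037 to 0.012. For P14 over P7, Bcl2l1 1420887_a_at ran from -0.48 to 0.50, Bcl2l11 1456005_a_at from -0.087 to 0.061 and Mcl1 1456243_x_at from -0.13 to 0.16. For P21 over P14, Bad ran from -0.66 to 0.23, Mcl1 1416881_at from -0.036 to 0.20 and 1456243_x_at from -0.23 to 0.052. For the difference between the weeks, Bak1 ran from -0.32 to 0.050, Bcl2l1 1420887_a_at from -1.74 to 0.22, 1426191_a_at from -0.13 to 0.090 and Mcl1 1456243_x_at from -0.18 to 0.39. The cause of these differences was not tested, beyond the smaller number of arrays or probe sets that a setting leaves. Without a P14 array, P14 is 1 array that is assumed to vary like the other ages. Signals near the highest signal of absent control transcripts limit Bcl2 1427818_at, Bcl2l11 1426334_a_at and Bcl2l1 1426191_a_at.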
